A study of Homo sapiens with 66 samples.

Results

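Transcripts of 7 genes that control the release of paused RNA polymerase II were followed in acute myeloid leukaemia (AML) cell lines before and after etoposide: the BET bromodomain genes BRD2 and BRD3, the P-TEFb genes CDK9, CCNT1 and CCNT2, and the genes HEXIM1 and LARP7 of the 7SK complex that holds P-TEFb inactive. They were taken by symbol, through the Ensembl identifiers of the count files, as 7 of 57992 genes. The rule uses no measured value, but the set was chosen with earlier results of these data known. The study sequenced RNA of 11 AML cell lines, each left in media (untreated) or given etoposide, a topoisomerase II poison that leaves broken DNA ends, for 24 hours at the half-inhibitory concentration of that line. The lines were F36P, HL60, KASUMI1, MOLM13, MONOMAC6, MV411, NB4, NOMO1, OCIAML2, OCIAML3 and THP1, with 3 libraries for each line and condition, which makes 66. The concentration differed by line, so concentration and line cannot be told apart, and each line is 1 culture and does not stand for a class of AML. The series describes the 3 libraries of a group as biological replicates, each pooled from 3 wells, but does not say whether they were grown on separate days.

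BET proteins bind acetylated histones through paired bromodomains and bring the elongation machinery to promoters and enhancers. P-TEFb is a kinase, CDK9, with either cyclin T1 (CCNT1) or cyclin T2 (CCNT2), and it phosphorylates the polymerase and the pausing factors so that elongation starts. Most P-TEFb is stored on the 7SK RNA, where HEXIM1 inhibits the kinase and LARP7 holds and stabilises the RNA. The HEXIM1 transcript is widely used as a readout of BET inhibitors, and many AML cells depend on these proteins to keep MYC transcribed. The 7SK RNA itself has no poly(A) tail and was not analysed here.

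Reads on genes numbered 17997404 to 24101670 per library (median 20241014), and the members had 436 to 3565 reads in a library. All 7 members passed the filter on low counts in each line. The etoposide libraries of OCIAML2, which the study discarded after a check of the raw reads, hardly differed from the untreated ones (3 of 13604 genes called), so OCIAML2 is given apart and counts over 10 lines leave it out. The label AML was checked in the untreated libraries: PTPRC, SPI1, CD33 and LYZ reached 1 CPM (counts scaled to a common library size) in 11 of 11 lines and the granule enzyme MPO in 10, with 0.977 CPM in F36P. F36P also had the highest levels of the erythroid genes GATA1 (253 CPM) and KLF1 (231 CPM) and was the only line with HBG1 at 1 CPM or more (15.1 CPM), while the epithelial and fibroblast markers KRT5, COL3A1 and DCN stayed under 1 CPM in each line. EPCAM reached 1 CPM in 2 lines (81.9 CPM in KASUMI1), and COL1A1 and the lymphoid CD3E in 1 each. In RNA of whole cultures, fewer cells with a transcript and less of it per cell cannot be told apart.

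BRD2 (ENSG00000204256.12) lies at chr6:32968594-32981505 on the + strand, among the class II genes of the major histocompatibility complex. BRD3 (ENSG00000169925.16, chr9:134030305-134068535, - strand) and CDK9 (ENSG00000136807.12, chr9:127785679-127790792, + strand) are both on the long arm of chromosome 9. CCNT1 (ENSG00000129315.9) is at chr12:48688458-48716998 (- strand), CCNT2 (ENSG00000082258.12) at chr2:134918235-134959342 (+ strand), HEXIM1 (ENSG00000186834.3) at chr17:45148475-45152099 (+ strand) and LARP7 (ENSG00000174720.15) at chr4:112637077-112657696 (+ strand), all on GRCh38 by gencode 44. HEXIM1 is the one member without an intron: its 3625 bp form 1 exon, against 7 exon blocks in CDK9 and 16 in BRD2. The methods do not name the count column. Of 446 genes inside an exon of the opposite strand, 353 had reads, as counting by strand gives, and under such counting the antisense genes BRD3OS (1283 bp shared with BRD3), HEXIM2-AS1 (520 bp shared with HEXIM1), CCNT2-AS1 and MIR302CHG do not share reads with the members. BRD2 shares 243 bp on its own strand with ENSG00000223837, which had 0 reads.

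The stretches before HEXIM1 and BRD2 are shown because HEXIM1 rose and BRD2 fell after etoposide in the lines MV411 and NB4, and because their RefSeq starts are those of the annotated genes. Both are 250 bases of the + strand on GRCh38.p14, from RefSeq, at chr17:45148225-45148474 and chr6:32968344-32968593. Capitals mark every match, on either strand, to the TATA box TATAAA, to CCAAT, which binds NF-Y, to the GC box GGGCGG, to the E-box CACGTG, to the cyclic AMP element TGACGTCA and to the AP-1 element TGANTCA.
HEXIM1: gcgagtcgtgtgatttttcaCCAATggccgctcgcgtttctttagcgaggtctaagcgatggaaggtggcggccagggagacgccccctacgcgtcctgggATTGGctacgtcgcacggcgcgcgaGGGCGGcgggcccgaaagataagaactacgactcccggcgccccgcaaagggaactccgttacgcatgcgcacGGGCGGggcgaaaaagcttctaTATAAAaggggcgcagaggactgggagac
BRD2: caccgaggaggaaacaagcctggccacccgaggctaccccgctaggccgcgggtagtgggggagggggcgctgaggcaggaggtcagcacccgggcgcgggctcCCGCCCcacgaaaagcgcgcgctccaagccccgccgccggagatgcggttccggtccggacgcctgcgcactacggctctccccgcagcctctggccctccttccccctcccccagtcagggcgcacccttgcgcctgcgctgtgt
The HEXIM1 stretch holds TATAAA starting 29 bases before the start, GGGCGG at 51 and 124 bases, CCAAT at 230 bases and its reverse complement at 149 bases. In the BRD2 stretch the 1 match is GGGCGG on the - strand, 146 bases before the start. Among 35116 RefSeq windows of 300 bases (250 before to 50 after the start), 11.5% hold TATAAA, 34.6% CCAAT, 45% GGGCGG, 7.26% CACGTG, 1.85% TGACGTCA and 7.71% TGANTCA. HEXIM1 was the only member with TATAAA in a window. All 7 members had a window, and BRD2 had 4: the second of these holds TGANTCA, 189 bases before its start, and both it and the fourth hold GGGCGG. LARP7 holds TGACGTCA, CCNT1 holds CACGTG, and BRD3 holds 6 GGGCGG. The GC content was 85% in the BRD3 window and 82% in that of CDK9, against a median of 58.7% over all windows. These matches are letters in a window and were not tested for binding.

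Before etoposide every member was transcribed in every line, at 34.7 to 119 CPM as a mean of 3 libraries. Per kilobase of summed exon, CDK9 was the most abundant member (median 21.6 RPKM over lines) and HEXIM1 next (16.6 RPKM). CCNT1 (12.4), BRD3 (10.7), BRD2 (8.86), LARP7 (8.83) and CCNT2 (7.73) followed. On this scale CDK9 or HEXIM1 came first in 11 of 11 lines. CCNT1 exceeded CCNT2 in every line but THP1, where CCNT1 was the lowest of the 7, and CCNT2 was the lowest in 6 lines. This order depends on the lengths, which sum every annotated exon: 3005 bp in CDK9, 3625 bp in HEXIM1 and up to 9081 bp in CCNT2. Median CPM was highest for CCNT1 (91.7) and lowest for CDK9 (64.9) and HEXIM1 (60.2). The lengths also set the size of ratios between genes below, but not their change after etoposide. Levels of all 7 differed between lines by the edgeR quasi-likelihood test, as did those of 99.4% of 18130 genes, so the call itself says little of the members. Their spread was small: the highest line exceeded the lowest by 1.58 times for BRD2 to 2.95 times for LARP7, against a median of 6.67 times over all genes. That background was not matched to the members in level, and its upper quartile was 126 times. Only 0.910% of genes had a smaller range than BRD2 and 4.97% a smaller one than BRD3, while 25.2% had a smaller one than LARP7.

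**Figure D1:**
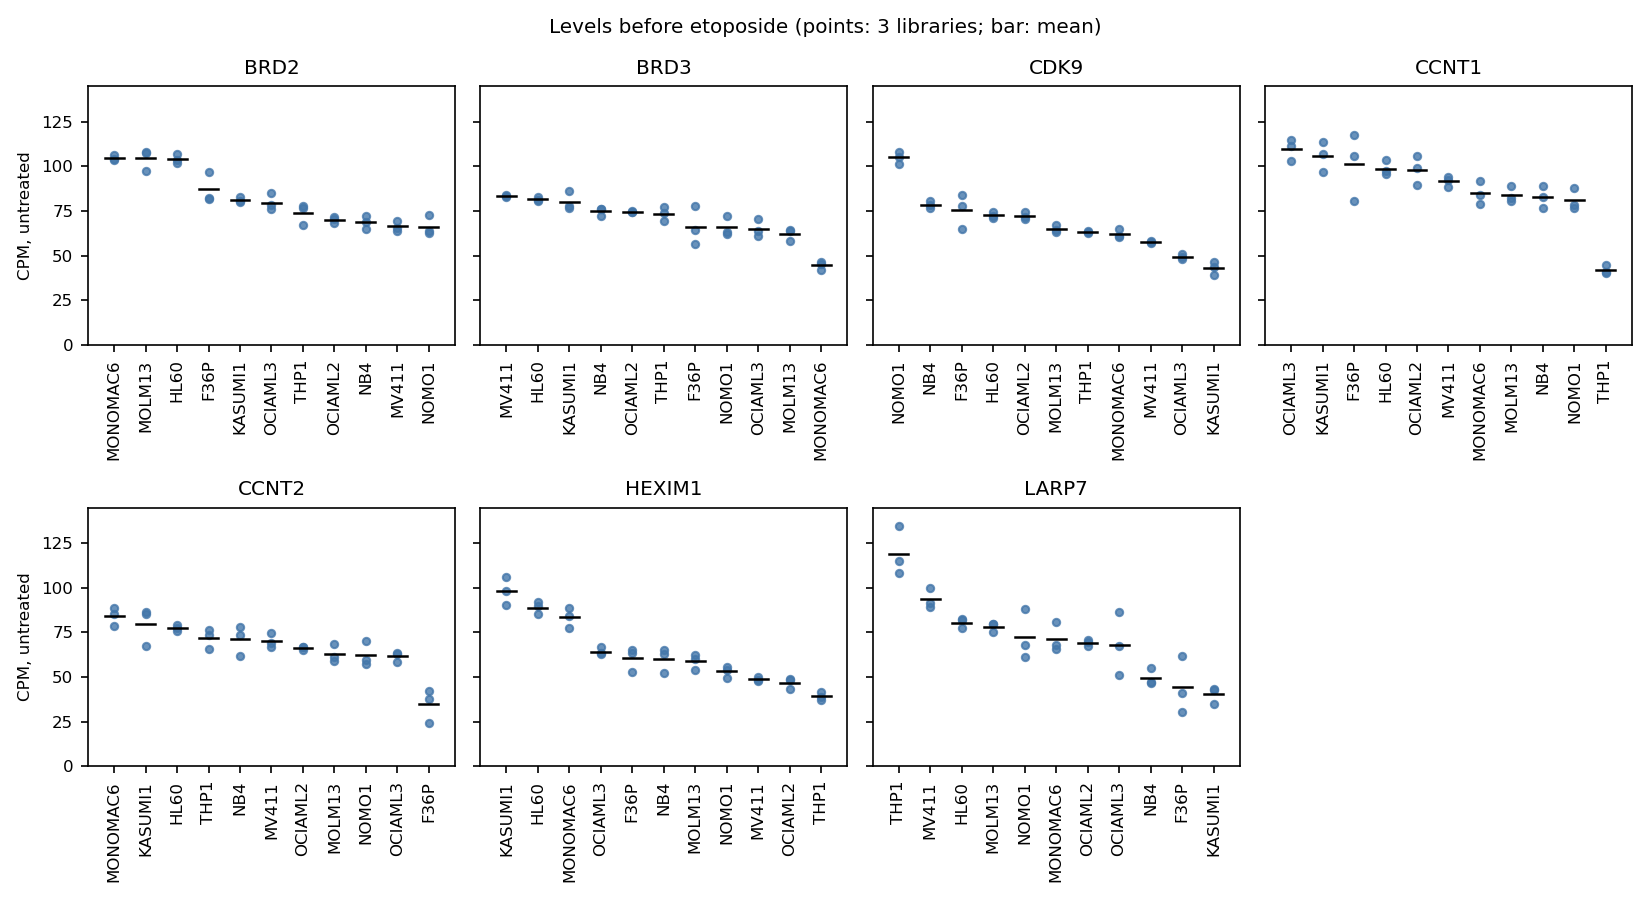
Untreated levels of the 7 genes in 11 lines, in CPM scaled over the 33 untreated libraries; points are libraries and bars are means of 3. BRD2 spans 66.3 to 105 CPM over lines and LARP7 40.4 to 119 CPM, and CCNT1 in THP1 lies under every other line.

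For the kinase, CDK9, NOMO1 stood highest with 102, 105 and 108 CPM, above every library of NB4 (76.5, 78.5 and 80.5 CPM), which was next. At the lower end MONOMAC6, MV411, OCIAML3 and KASUMI1 followed each other without overlap, down to 39.0, 43.5 and 46.2 CPM in KASUMI1. CDK9 thus had 5 of 10 neighbouring pairs of lines whose libraries did not overlap, the most of any member. BRD3 had 3 of 10, HEXIM1 and LARP7 2 each, and BRD2, CCNT1 and CCNT2 1 each, against 30.5% of such pairs over all genes. CCNT1 had 10 lines between 81.0 and 109.8 CPM whose neighbours overlapped, and THP1 apart at 44.9, 40.1 and 41.0 CPM. CCNT2 also had 1 line apart, F36P, at 24.3, 37.8 and 42.1 CPM, while the other 10 lay between 61.8 and 84.2 CPM. HEXIM1 formed an upper set of KASUMI1 (98.2 CPM), HL60 (88.9 CPM) and MONOMAC6 (83.4 CPM), whose libraries did not overlap those of OCIAML3 (64.2 CPM), the next line. THP1 was lowest for HEXIM1, with 37.3, 41.8 and 38.6 CPM, and highest for LARP7, with 115, 134 and 108 CPM. KASUMI1 was at the opposite end of both, with 90.4, 98.4 and 106 CPM of HEXIM1 and 43.5, 43.0 and 34.7 CPM of LARP7. Between THP1 and KASUMI1, LARP7 was in the order MV411 (93.5 CPM), HL60, MOLM13, NOMO1, MONOMAC6, OCIAML2, OCIAML3, NB4 and F36P (44.4 CPM), and from HL60 downward neighbours overlapped. BRD2 was at 104 to 105 CPM in HL60, MOLM13 and MONOMAC6 and from 66.3 to 87.0 CPM in the other 8, with a gap only between HL60 and F36P. BRD3 was lowest in MONOMAC6 (41.9, 46.3 and 45.4 CPM), where BRD2 was highest (103, 106 and 104 CPM), and highest in MV411 at 83.3 CPM.

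After etoposide the members moved in both directions and by little. In the edgeR quasi-likelihood test of each line, with p adjusted by Benjamini-Hochberg over the genes tested, 15 of 70 member-by-line tests were rises (21.4%) and 11 were falls (15.7%), against 27.7% rises and 24.4% falls over all genes in these lines. None of the 70 passed 2-fold (the widest log2 fold changes were -0.78 and 0.73), a size that 11.1% of all tests passed upward and 3.96% downward. The median log2 fold change was -0.07 over the members' tests and 0.01 over all genes. Rises were in CDK9 (5 lines), HEXIM1 (5), CCNT1 (4) and LARP7 (1), and falls to LARP7 (3), BRD2 (2), BRD3 (2), CCNT2 (2), CCNT1 (1) and HEXIM1 (1). Every etoposide library lay above every untreated one in 16 tests (background 31.2%) and below in 22 (background 28.6%). The split of calls depends on the scaling: with library size alone, which moved the median gene by 0.335 in F36P, 0.214 in NB4, 0.203 in KASUMI1, 0.142 in MV411 and 0.130 in MONOMAC6 on the log2 scale, 21 tests were rises and 6 falls. Log2 fold changes below are relative to the scaling by trimmed means, under which the median gene moved by at most 0.0864.

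**Figure D2:**
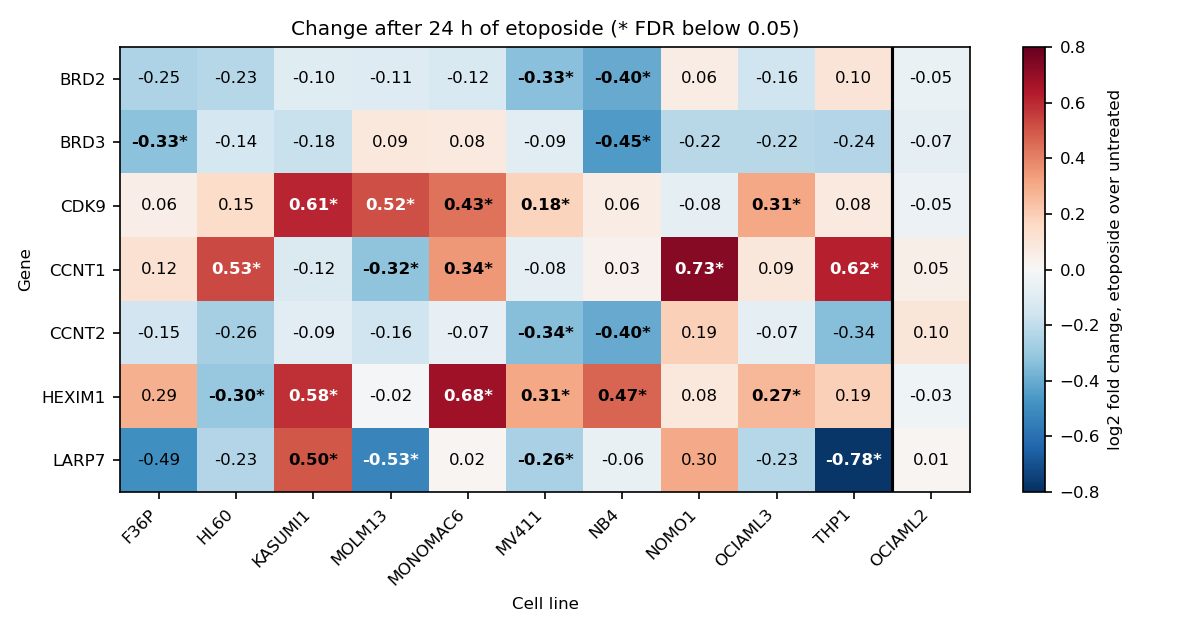
Log2 fold change (etoposide over untreated) of each gene in each of 11 lines from the per-line edgeR fits, with calls at an adjusted p below 0.05 marked. CDK9 and HEXIM1 hold 10 of the 15 rises, BRD2, BRD3 and CCNT2 hold falls only, and OCIAML2 holds no call.

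CDK9, the catalytic subunit, rose in 5 lines and fell in none. In KASUMI1, the line with the lowest basal level, its level was 39.1, 43.7 and 45.7 CPM without and 61.4, 72.0 and 62.3 CPM with etoposide (log2 fold change 0.61, SE 0.10, adjusted p = 0.000540). MOLM13 had 62.0, 64.5 and 60.4 CPM without and 82.8, 91.5 and 92.9 CPM with etoposide (log2 fold change 0.52, SE 0.07, adjusted p = 0.000201), and MONOMAC6 63.6, 67.7 and 62.9 CPM without and 86.0, 91.7 and 84.1 CPM with etoposide (log2 fold change 0.43, SE 0.06, adjusted p = 3.77e-05). In these 3 lines every etoposide library stood well above the untreated ones. The rises in OCIAML3 and MV411 were smaller. OCIAML3 had 51.2, 47.6 and 50.5 CPM without and 58.8, 60.1 and 66 CPM with etoposide (log2 fold change 0.31, SE 0.08, adjusted p = 0.0116), and the call was lost without untreated replicate 2 (adjusted p = 0.0611) or 3 (0.0520). MV411 had 61.7, 61.4 and 61.6 CPM without and 66.1, 72.1 and 70.2 CPM with etoposide (log2 fold change 0.18, SE 0.06, adjusted p = 0.0170), and that call was lost without any 1 untreated library or etoposide replicate 2, with adjusted p of 0.0545 to 0.0932. The other 5 lines were not called, although every etoposide library of HL60 was above the untreated ones: HL60 0.15 ± 0.09, THP1 0.08 ± 0.14, NB4 0.06 ± 0.08, F36P 0.06 ± 0.12 and NOMO1 -0.08 ± 0.08 (log2 fold change ± SE). In NOMO1, the line with the most CDK9 before treatment, the level was 114, 117 and 121 CPM without and 114, 109 and 110.4 CPM with etoposide, which overlap. HL60 and NB4 passed the test only with library size alone (adjusted p = 0.0396 and 0.0135).

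CCNT1, the major cyclin of P-TEFb, rose in 4 lines, in 1 of which CDK9 rose too. NOMO1 had 98.1, 87.1 and 86.2 CPM without and 118, 166 and 166 CPM with etoposide (log2 fold change 0.73, SE 0.13, adjusted p = 0.000418), THP1 46.2, 41.3 and 42.0 CPM without and 65.8, 58.0 and 75.1 CPM with etoposide (log2 fold change 0.62, SE 0.13, adjusted p = 0.00161), and HL60 111, 102 and 104 CPM without and 157, 133 and 169 CPM with etoposide (log2 fold change 0.53, SE 0.10, adjusted p = 0.00133). In MONOMAC6, the line where both rose, CCNT1 was 95.7, 82.4 and 87.1 CPM without and 115, 110.2 and 112 CPM with etoposide (log2 fold change 0.34, SE 0.06, adjusted p = 0.000308). No library of the 2 conditions overlapped in these 4 lines. Its fall was in MOLM13, at 85.4, 77.3 and 78.8 CPM without and 70.4, 59.2 and 63.9 CPM with etoposide (log2 fold change -0.32, SE 0.08, adjusted p = 0.00746), which 1 fit of all libraries did not call (adjusted p = 0.0553). The remaining 5 lines lay between -0.12 in KASUMI1 and 0.12 in F36P, with overlapping libraries. F36P and NB4 were called with library size alone (adjusted p = 0.0485 and 0.0269).

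CCNT2, the alternative cyclin, fell in 2 lines and rose in none. MV411 had 79.2, 74.4 and 71.5 CPM without and 63.4, 53.9 and 60.2 CPM with etoposide (log2 fold change -0.34, SE 0.07, adjusted p = 0.000180) and NB4 77.1, 64.7 and 82.4 CPM without and 61.0, 57.0 and 51.7 CPM with etoposide (log2 fold change -0.40, SE 0.10, adjusted p = 0.00386). The etoposide libraries were also all lower in HL60 (-0.26 ± 0.10, adjusted p = 0.0506) and THP1 (-0.34 ± 0.14, adjusted p = 0.0783), without passing the test. MV411 lost its call in 1 fit of all libraries (adjusted p = 0.0975) and NB4 with library size alone (0.115). NOMO1 was the only line of 10 with a positive value, and 1 library stood apart there: CCNT2 was 78.3, 66.2 and 64.5 CPM without and 55.2, 93.3 and 89.9 CPM with etoposide. Without etoposide replicate 1 the value in NOMO1 went from 0.19 to 0.36 and passed the test (adjusted p = 0.00309). Leaving out 1 library likewise brought falls past the test in F36P (untreated replicate 1, 0.0115), MOLM13 (etoposide replicate 1, 0.0284) and HL60 (etoposide replicate 1, 0.0167). HL60 was also called by the edgeR exact test (0.0426) and with the replicate number as a block (0.0369).

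The ratio of the 2 cyclins shifted in most lines. Per kilobase of exon, CCNT1 over CCNT2 was 0.72 in untreated THP1 and 1.41 after etoposide, and 1.57 and 2.71 in HL60 (means of 3 libraries on the log scale). Every etoposide library had a higher ratio than every untreated one in 8 of 10 lines, a lower one in MOLM13, and the ranges overlapped in KASUMI1. Over all genes, the ratio to CCNT2 was higher in every etoposide library in 37.1% of tests and lower in 13.7%. The change ran from -0.16 in MOLM13 to 0.97 in THP1 on the log2 scale, with a median of 0.34. In lines such as F36P (0.25), MV411 (0.27) and NB4 (0.43) the ratio separated although CCNT1 alone did not pass the test.

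**Figure D3:**
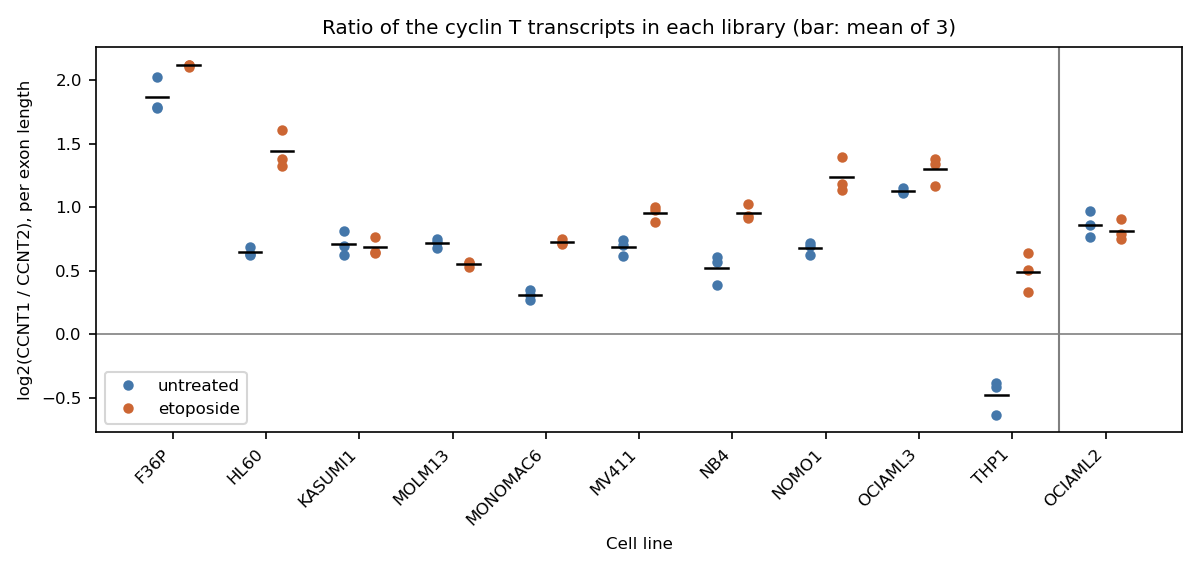
Ratio of CCNT1 to CCNT2 per kilobase of exon in each library (log2 scale), untreated and etoposide, by line. All etoposide points lie above the untreated ones in 8 lines, and MOLM13 is the line where they lie below.

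HEXIM1, the inhibitor of P-TEFb, rose in 5 lines and fell in 1. Its largest rise was in MONOMAC6, from 80.6, 92.1 and 87.8 CPM to 138, 142 and 137 CPM (log2 fold change 0.68, SE 0.06, adjusted p = 8.13e-07). KASUMI1, which had the most HEXIM1 before treatment, went further up, from 90.5, 98.7 and 105 CPM to 131, 161 and 148 CPM (log2 fold change 0.58, SE 0.10, adjusted p = 0.000605). NB4 had 66, 68.6 and 55.1 CPM without and 85.6, 90.4 and 86.0 CPM with etoposide (log2 fold change 0.47, SE 0.10, adjusted p = 0.000677). These 3 lines had no overlapping libraries, and neither did the next pair of lines. MV411 had 53.2, 52.1 and 51.0 CPM without and 61.5, 64.1 and 68.2 CPM with etoposide (log2 fold change 0.31, SE 0.06, adjusted p = 0.000236). OCIAML3 had 63.2, 66.2 and 64.7 CPM without and 75.6, 76.9 and 80.9 CPM with etoposide (log2 fold change 0.27, SE 0.07, adjusted p = 0.0121), a call lost in DESeq2 (adjusted p = 0.0512), in 1 fit of all libraries (0.0653), with the replicate number as a block (0.0596) and without untreated replicate 1 (0.0657), untreated replicate 3 (0.0696) or etoposide replicate 2 (0.0534). HL60 was the line with a fall, 91.4, 95.9 and 98.5 CPM without and 74.0, 90.7 and 67.2 CPM with etoposide (log2 fold change -0.30, SE 0.11, adjusted p = 0.0479). Its etoposide libraries all lay below the untreated ones, but 8 of 14 alternatives lost this call, among them library size alone (0.165) and the omission of any untreated library or of etoposide replicate 1 or 3 (adjusted p of 0.0946 to 0.185). F36P gave 0.29 ± 0.14 with 1 etoposide library at 92.9 CPM above the other 2, and was called with library size alone (0.00887), with genes under a mean of 5 CPM left out (0.0321) and in 1 fit of all libraries (0.00615). THP1, NOMO1 and MOLM13 gave 0.19 ± 0.14, 0.08 ± 0.08 and -0.02 ± 0.10, with overlapping libraries.

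LARP7, the partner of HEXIM1 on the 7SK RNA, had libraries that scattered widely in several lines. It fell in THP1, the line with the highest basal level, from 118, 139 and 111 CPM to 82.5, 50.6 and 80.8 CPM (log2 fold change -0.78, SE 0.16, adjusted p = 0.00139), the largest change of any member. MV411 had 106, 95.6 and 98.0 CPM without and 90.7, 78.0 and 81.8 CPM with etoposide (log2 fold change -0.26, SE 0.07, adjusted p = 0.00175), and MOLM13 72.5, 76.5 and 76.4 CPM without and 67.9, 38.3 and 50.5 CPM with etoposide (log2 fold change -0.53, SE 0.16, adjusted p = 0.0187). In MOLM13 the 3 etoposide libraries are all lower but lie far apart, and the call was lost without etoposide replicate 3 (adjusted p = 0.0642), without untreated replicate 3 (0.0560) and in 1 fit of all libraries (0.0822). The fall in MV411 was lost with library size alone (0.0937) and in that 1 fit (0.470). KASUMI1, lowest before treatment, was the line with a rise, 43.5, 43.1 and 34.3 CPM without and 53.8, 49.9 and 67.1 CPM with etoposide (log2 fold change 0.50, SE 0.13, adjusted p = 0.00956). OCIAML3 had 67.7, 50.6 and 88.2 CPM without and 64.6, 79.5 and 32.0 CPM with etoposide, so the spread within each group exceeded the difference. NOMO1 had 98.6, 67.9 and 76.0 CPM without and 70.6, 114 and 115 CPM with etoposide, where etoposide replicate 1 stood apart as it did for CCNT1 and CCNT2, and without it the value passed the test as a rise (0.46, adjusted p = 0.00143), as it did without the filter on low counts (0.0115). In F36P the untreated libraries ran from 30.7 to 67.9 CPM, with a log2 fold change of -0.49 ± 0.25 that was not called (adjusted p = 0.115). A fall was called there by DESeq2 (0.0367), without the filter on low counts (0.00116) and without untreated replicate 1 (0.00197).

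**Figure D4:**
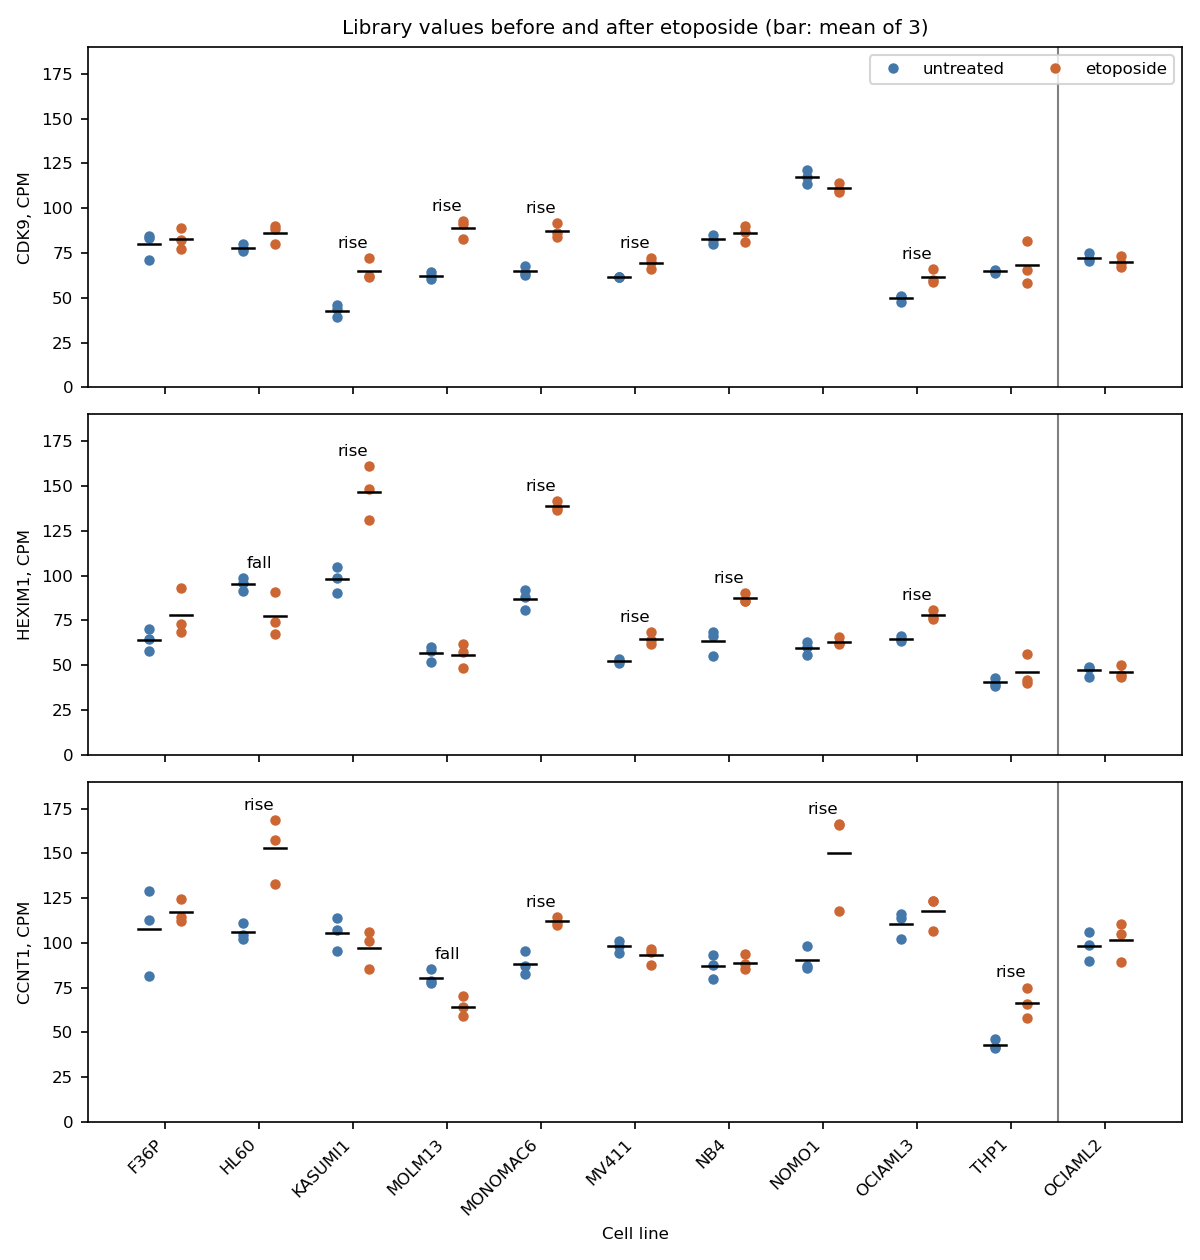
CPM of single libraries for CDK9, HEXIM1 and CCNT1, untreated and etoposide, by line, on the scale of each line's own fit. For CDK9 and HEXIM1 the untreated and etoposide groups stand clear of each other in KASUMI1 and MONOMAC6. For CCNT1 they do so in MONOMAC6 and overlap in KASUMI1.

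The ratio of HEXIM1 to LARP7 per kilobase of exon was higher after etoposide in 8 of 10 lines, by a median of 0.55 on the log2 scale. The libraries separated in 4 lines, THP1, MONOMAC6, MV411 and NB4, and in none downward (background 35.2% above, 14.2% below). In THP1 the ratio was 0.74 without and 1.46 with etoposide, where LARP7 fell and HEXIM1 was not called. HEXIM1 against CDK9, the inhibitor against the kinase, was mixed: all etoposide libraries were higher in 5 lines (F36P, MONOMAC6, MV411, NB4 and NOMO1) and lower in 2 (HL60 and MOLM13), against 20.8% and 42.2% over all genes. The largest shift was downward, -0.54 on the log2 scale in MOLM13 (a ratio of 0.75 before and 0.52 after), where CDK9 rose and HEXIM1 was not called.

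The BET genes BRD2 and BRD3 fell in 2 lines each and rose in none, although BRD3 in MONOMAC6 was called as a rise with library size alone (0.19, adjusted p = 0.0161). BRD2 had 69.7, 74.8 and 68.3 CPM without and 55.4, 57.5 and 56.0 CPM with etoposide in MV411 (log2 fold change -0.33, SE 0.06, adjusted p = 8.59e-05) and 72.2, 75.6 and 68.9 CPM without and 55.6, 53.9 and 54.6 CPM with etoposide in NB4 (log2 fold change -0.40, SE 0.09, adjusted p = 0.000934). BRD3 had 79.9, 79.5 and 76.5 CPM without and 57.0, 57.4 and 58.2 CPM with etoposide in NB4 (log2 fold change -0.45, SE 0.08, adjusted p = 0.000274). The conditions did not overlap in these tests, and NB4 was the one line where both fell. In F36P BRD3 was 78.8, 68.8 and 62.1 CPM without and 52.6, 54.7 and 59.8 CPM with etoposide (log2 fold change -0.33, SE 0.13, adjusted p = 0.0465), but 9 of 14 alternatives lost the call, library size alone (0.629), the filter at a mean of 5 CPM (0.30), the edgeR exact test (0.0647), the block on replicate number (0.132) and the omission of untreated replicate 1 or 2 or of any etoposide library (adjusted p of 0.0586 to 0.134) among them. The BRD2 fall in NB4 was lost with library size alone (0.0570). For BRD2 the etoposide libraries also lay below the untreated ones in F36P (-0.25 ± 0.12), HL60 (-0.23 ± 0.08), KASUMI1 (-0.10 ± 0.08) and MONOMAC6 (-0.12 ± 0.05), and for BRD3 in HL60 (-0.14 ± 0.09), KASUMI1 (-0.18 ± 0.08), MV411 (-0.09 ± 0.06) and OCIAML3 (-0.22 ± 0.08), all short of the threshold. BRD2 in HL60 was closest, at 111, 109 and 115 CPM without and 97.3, 90.5 and 98.2 CPM with etoposide (adjusted p = 0.0536). The range over 10 lines was narrow, -0.40 to 0.10 for BRD2 and -0.45 to 0.09 for BRD3. Falls were called with 1 library left out for BRD2 in F36P (untreated replicate 3), MONOMAC6 (untreated replicate 1) and OCIAML3 (etoposide replicate 3), and for BRD3 in NOMO1 (etoposide replicate 1), OCIAML3 (etoposide replicate 3) and THP1 (etoposide replicate 2), with adjusted p of 0.00236 to 0.0426. Other settings called falls of BRD2 in F36P (no filter on low counts, 0.0461, and 1 fit of all libraries, 0.0219) and MONOMAC6 (RLE size factors, 0.0465, and the block, 0.00484), and of BRD3 in NOMO1 (0.0278) and OCIAML3 (0.0499) in 1 fit of all libraries. The ratio of BRD2 to BRD3 per kilobase of exon was higher in every etoposide library in 3 lines and lower in 3 (background 39.4% and 18.3%), with a median change of 0.05.

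Read by line, MV411 had the most calls, 2 rises (background 33.5%) and 3 falls (30.4%) among the 7 members, then NB4 with 1 rise (31.0%) and 3 falls (28.7%). In both, HEXIM1 rose while BRD2 and CCNT2 fell. KASUMI1 had 3 rises (31.5%), of CDK9, HEXIM1 and LARP7, and no fall (28.6%). MONOMAC6 had 3 rises (31.8%), of CDK9, CCNT1 and HEXIM1, and no fall (30.5%). MOLM13 combined a rise of CDK9 (28.1%) with falls of CCNT1 and LARP7 (28.1%). OCIAML3 had rises of CDK9 and HEXIM1 (22.4%) and no fall (17.7%). HL60 had CCNT1 up (17.5%) and HEXIM1 down (15%), THP1 CCNT1 up (16.1%) and LARP7 down (16.0%), NOMO1 CCNT1 up (28.8%) and no fall (23.9%). F36P, in which 59.9% of genes were called, had 1 member called, the fall of BRD3 (25%), and no rise (35.0%). In OCIAML2 none of the 7 was called by edgeR's quasi-likelihood or exact test or by DESeq2, and 0 had an unadjusted p under 0.05. Their log2 fold changes lay between -0.07 (BRD3) and 0.10 (CCNT2), and BRD3 was the one member with non-overlapping libraries, 74.6, 74.6 and 74.7 CPM without and 71.5, 68.9 and 73.1 CPM with etoposide (background 3.56%). The 95% intervals of these 7 values ran from -0.17 to 0.22, and 0.0221% of genes were called there as rises and 0 as falls.

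Averaged over the 10 lines, with 1 value per line and an exact two-sided sign-flip permutation test (smallest possible p 0.00195), CDK9 was higher after etoposide, by 0.23 ± 0.23 (SD, n = 10 lines, adjusted p = 0.0234), with a positive value in 9 of 10 lines. CCNT2 averaged -0.17 ± 0.18 (SD, n = 10 lines, adjusted p = 0.0459) and was negative in 9 lines, BRD3 -0.17 ± 0.17 (SD, n = 10 lines, adjusted p = 0.0312) and BRD2 -0.15 ± 0.16 (SD, n = 10 lines, adjusted p = 0.0387), both negative in 8. The test called 17.6% of 10588 genes higher and 25.7% lower, so 1 and 3 of 7 are near the background, and the median gene averaged -0.03. HEXIM1 averaged more than CDK9, 0.25 ± 0.29 (SD, n = 10 lines, adjusted p = 0.0628), but HL60 went against it and the test was not passed. Without HL60 it was (0.0264), as also without untreated replicate 2 of each line (0.0429) or etoposide replicate 1 (0.0285). CCNT1 averaged 0.20 ± 0.35 (SD, n = 10 lines, adjusted p = 0.176) and LARP7 -0.18 ± 0.39 (SD, n = 10 lines, adjusted p = 0.288), and neither was called. CDK9 kept its call in every alternative run, with an adjusted p of 0.0182 to 0.0443 when 1 line was left out. The averages of BRD2, BRD3 and CCNT2 did not: with library size alone they were -0.04 (adjusted p = 0.410), -0.06 (0.285) and -0.06 (0.395). BRD2 kept its call only without NOMO1 or THP1, BRD3 only without HL60, MOLM13 or MONOMAC6, and CCNT2 only without NOMO1, among the 10 lines left out in turn, with adjusted p up to 0.0734, 0.0593 and 0.0863. BRD3 also lost its call without etoposide replicate 1 of each line (0.0512), and CCNT2 without untreated replicate 1 (0.0825), without etoposide replicate 1 (0.0546) or with OCIAML2 (0.0645).

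Whether the lines differed in their response was tested by the interaction of line and treatment in 1 edgeR fit of 60 libraries. Responses differed for 6 of 7 members, against 74.5% of 19974 genes. The strongest was CCNT1 (F = 9.18, adjusted p = 1.44e-07), then CDK9 (7.67, 1.46e-06) and HEXIM1 (7.46, 2.06e-06), with BRD2 (3.48, 0.00333), BRD3 (3.34, 0.00454) and LARP7 (3.02, 0.00881) weaker. CCNT2 was not called (adjusted p = 0.386), nor was BRD2 without replicate 1 (0.0679) or 2 (0.135) of each group or without the filter on low counts (0.0706), BRD3 without replicate 2 (0.0797) or MOLM13 (0.0595), and LARP7 without replicate 2 (0.0572), without KASUMI1 (0.0941) or with a block on replicate number (0.0724). Without replicate 1 CCNT2 was called (0.0145). Set against the mean of the other 9 lines in the same fit, 10 of 70 values were above and 7 below (background 10.3% and 11.7%). CCNT1 responses were above the others in NOMO1 (by 0.53 ± 0.11 on the log2 scale), THP1 (0.49 ± 0.12) and HL60 (0.37 ± 0.11), and below in MOLM13 (-0.54 ± 0.11) and KASUMI1 (-0.32 ± 0.11). CDK9 showed the reverse in some of these lines, above in KASUMI1 (0.44 ± 0.09) and MOLM13 (0.36 ± 0.09) and below in NOMO1 (-0.40 ± 0.09). HEXIM1 was above in MONOMAC6 (0.44 ± 0.11) and KASUMI1 (0.39 ± 0.11), and below in HL60 (-0.62 ± 0.11). LARP7 was above in KASUMI1 (0.77 ± 0.23) and below in THP1 (-0.65 ± 0.22). NB4 was below the others for both BET genes (BRD2 -0.25 ± 0.08, BRD3 -0.29 ± 0.10), with BRD2 above in THP1 (0.30 ± 0.08) and BRD3 above in MOLM13 (0.32 ± 0.10).

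The other genes of elongation control were read from a list of 31, of which ELL3 did not pass the filter and 30 gave 300 tests over 10 lines. Of these 46 were rises (15.3%) and 111 falls (37.0%), against 27.7% and 24.4% over all genes, and 7 rises and 1 fall passed 2-fold. With library size alone the list had 65 rises and 75 falls. The partners of the 7SK complex gave 7 rises and 2 falls in 20 tests. HEXIM2, the paralogue of HEXIM1, held 6 of the rises, 3 of them over 2-fold (MV411 1.23, F36P 1.10 and KASUMI1 1.03), and was positive in 10 of 10 lines. Its level was low, in MV411 2.10, 1.88 and 2.24 CPM without and 4.23, 5.42 and 4.97 CPM with etoposide. HEXIM2 was singled out after its values were seen. The super elongation complex, which carries P-TEFb to genes, gave 27 rises and 21 falls in 80 tests. ELL2, its elongation factor, had a call in each line. KASUMI1 had 6.86, 5.99 and 6.41 CPM without and 29.9, 25.7 and 29.7 CPM with etoposide (log2 fold change 2.15, SE 0.11, adjusted p = 7.22e-07), 1 of 4 rises over 2-fold. F36P was the one line with a fall, at 146, 181 and 192 CPM without and 95.9, 81.7 and 84.4 CPM with etoposide (log2 fold change -0.98, SE 0.13, adjusted p = 0.000134). The scaffold AFF4 rose in 9 lines (all but KASUMI1, range of log2 fold changes 0.01 to 0.76), while AFF1, the scaffold fused to KMT2A in the leukaemia from which MV411 comes, fell in 7 and rose in MOLM13 (-1.28 in F36P to 0.19 in MOLM13). MLLT1, a chromatin reader of the complex, fell in 7. DSIF and NELF, which hold the polymerase at the pause, gave 1 rise and 29 falls in 60 tests, with SUPT4H1, NELFB and NELFCD falling in 7 lines each and negative in 10. The PAF1 complex gave 8 rises and 22 falls in 60, 7 of the falls in LEO1. The other transcription kinases and their cyclins gave 3 rises and 37 falls in 80, among them CDK8 of the Mediator with 8 falls (-0.69 to 0.13) and CDK12, which acts on the elongating polymerase, with 7. MLLT1, SUPT4H1, NELFB, NELFCD, LEO1 and CDK12 are tied in number of calls, so all are named. CDK9 had rises in 5 lines and no fall, and the 8 other kinase and cyclin genes had 3 rises in 80 tests.

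**Figure D5:**
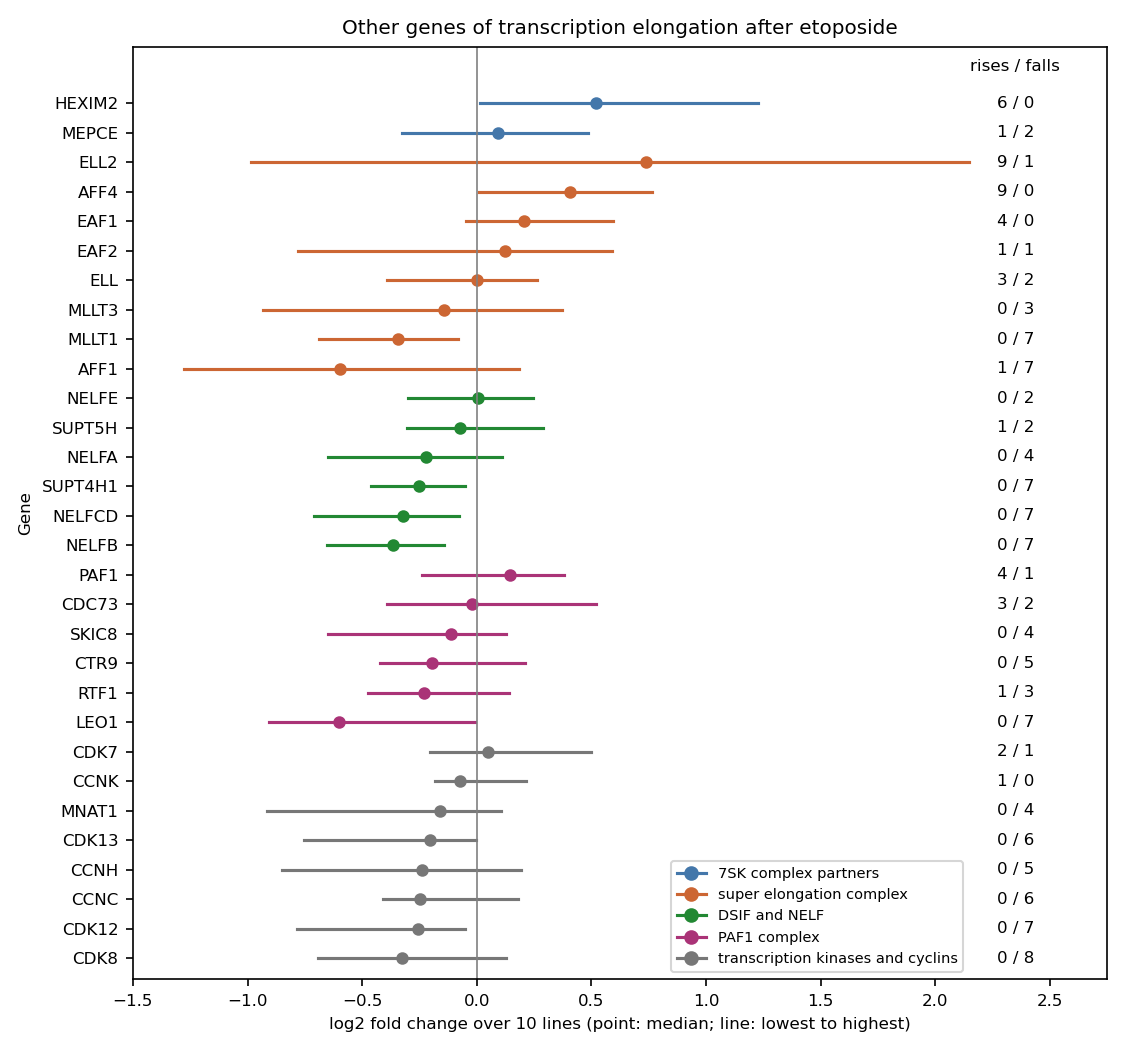
Log2 fold changes over 10 lines for each tested gene of the elongation list, coloured by group. Points are medians and lines run from the lowest to the highest value. Beside each gene stand its numbers of rises and falls (adjusted p below 0.05). Summed over their genes, DSIF and NELF have 1 rise and 29 falls, the other kinases and cyclins 3 and 37, and the 7SK partners 7 and 2.

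MYC, a gene known to depend on BET proteins and P-TEFb, fell in each of the 10 lines, with an average log2 fold change of -1.71 ± 1.01 (SD, n = 10 lines, adjusted p = 0.00991 in the exact sign-flip test). It went from 910.2, 833 and 792 CPM to 50.2, 65.5 and 72.3 CPM in F36P (-3.75) and from 985, 1126 and 1033 CPM to 689, 799 and 647 CPM in HL60 (-0.56), the largest and the smallest of these falls. In MONOMAC6, where HEXIM1 rose most, MYC fell by 2.67, and in HL60, where HEXIM1 fell, MYC fell least. The HEXIM1 call in HL60 was lost in 8 of 14 alternatives. F36P departs from this order, with the largest fall of MYC and a HEXIM1 value of 0.29 that was not called. Over 10 lines the Pearson correlation of the log2 fold changes of HEXIM1 and MYC was -0.63. It was -0.86 without F36P, a value that leaves out the departing line. The correlation is given as a description: both genes were measured in the same libraries and share each line's scaling and concentration. Of 10541 genes, 6.41% had an r with MYC at or below that of HEXIM1, and 0.161% without F36P. F36P departs in these same values of HEXIM1 and MYC, and no such line was sought for each other gene. The second share is therefore not a like background for the -0.86. The other 6 members had r with MYC from -0.23 (LARP7) to 0.26 (BRD2 and BRD3), and without F36P from -0.65 (LARP7) to 0.16 (BRD2).

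Among the members, log2 fold changes over the 10 lines were most alike for BRD3 and CDK9 (r = 0.62), though the first was on average lower and the second higher, and most opposed for CDK9 and CCNT1 (r = -0.63, and -0.68 without F36P). BRD2 and BRD3 had r = 0.26. Of 10542 genes tested in each line with a mean of at least 1 CPM, those with the pattern most like a member's over the 10 lines were, with Pearson r, LINC00997 (0.929), GHDC (0.914), ABR (0.90) for CDK9, EIF2S1 (0.970), MAP1LC3B (0.959), SDE2 (0.956) for CCNT1 and TWF1 (0.922), OSTM1 (0.915), CCNC (0.914) for CCNT2. For HEXIM1 they were AGBL3 (0.888), DNAJC13 (0.879), UBE4A (0.869), and for LARP7 PNN (0.973), RBM39 (0.953), USP16 (0.953). The BET genes had RNF10 (0.929), FOXP4-AS1 (0.880), ACTR8 (0.877) beside BRD2 and MIF4GD-DT (0.888), SRCAP (0.885), SRRM2 (0.879) beside BRD3. CCNT1 had 25 genes and LARP7 30 with r above 0.9. With 10 points from shared libraries and 10542 candidates, high values of r are frequent, and these names are a description only.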

How the data were processed

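RNA of 11 AML cell lines, untreated or with etoposide, was sequenced from 1 end after stranded poly(A) library preparation. Per the methods and the submitters' processing notes, the authors mapped the reads with STAR 2.5.3a to GRCh38.p7 with gencode 25 and deposited unnormalized counts of reads per gene, 1 column a library. Of 446 genes inside an exon of the other strand, 353 have reads, so the column, which the methods do not name, was taken to count by strand. Here 45 copies on the Y pseudoautosomal region (0 reads) were left out and names were taken from gencode 44 by identifier (56948 of 57992). Each line was fitted in R 4.3.3 with edgeR 4.0.16 (filterByExpr, minimum count 10, total 15, TMM, quasi-likelihood test, Benjamini-Hochberg adjustment over 13210 to 15911 genes, threshold 0.05). CPM uses the fit's effective library sizes, and RPKM divides it by summed exon length in gencode 44, while reads were counted on gencode 25. Averages over lines used exact sign-flip permutation. DESeq2 1.42.0, Python 3.11.15, numpy 2.4.6, pandas 2.3.3, scipy 1.17.1 and matplotlib 3.10.9 were also used, and the fits were tested on simulated data. Named genes were the members, the 6 list genes with most calls (ties kept), MYC and, for each member, the 3 genes most alike over lines. Members and lists were chosen with earlier results of these data known. P-values of the fits to libraries rest on the spread between the 3 libraries of a group, estimated in part over all genes. Those of the averages rest on 1 value for each of 10 lines. Replicate numbers pair the libraries only in MOLM13, NB4 and OCIAML2, where libraries of the same number deviate together (correlation above 0.1 in each of the pairs, lowest 0.182, 0.196 and 0.115). Alternatives were other scalings, filters and tests, 1 fit of all libraries, a replicate block, and single replicates or lines left out.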

Additional observations from a re-analysis of the deposited data

Results flagged for a closer look

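The responses to etoposide differed between the 10 lines for 6 of 7 genes by the interaction test of 60 libraries, which is what brings them here: adjusted p was 1.44e-07 for CCNT1, 1.46e-06 for CDK9, 2.06e-06 for HEXIM1, 0.00333 for BRD2, 0.00454 for BRD3 and 0.00881 for LARP7. The same test called 74.5% of all genes. Each of the 6 genes holds called lines on either side of the mean of the other 9. The 2 with the strongest interaction were high in different lines, CCNT1 in NOMO1, THP1 and HL60 and CDK9 in KASUMI1 and MOLM13. The part that concentration or line plays in these differences was not tested. No line stood apart from the other 9 for a member by the gap over the whole range, and groups of 3 libraries are too small for that rule.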

How the results depend on the processing

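No value or average of a member changed sign past its threshold under any alternative. The list was followed by its counts only, so signs of its genes were not checked. Of 26 member-by-line calls, 15 held in all 14 alternatives, and no member passed 2-fold in any. Among 70 member tests, 15 rises and 11 falls became 21 and 6 with library size alone, while the other scalings, filters, tests and fits of all libraries gave 14 to 16 rises and 9 to 13 falls. Leaving out 1 replicate gave 12 to 17 rises and 9 to 12 falls. The replicate block gave 14 rises and 12 falls, changed no member's call in the 3 paired lines, and lost BRD3 in F36P and HEXIM1 in OCIAML3 while BRD2 in MONOMAC6 and CCNT2 in HL60 were gained; for the list it gave 44 rises and 108 falls, for the averages 1 higher and 3 lower, and for the interaction 5 of 7. Members higher on average numbered 1, and 2 with library size alone, above a mean of 5 CPM and without HL60 (1 to 2 without 1 replicate). Those lower numbered 3, but 0 with library size alone, above a mean of 5 CPM, and without F36P, KASUMI1, MV411, NB4 or OCIAML3, and 1 without HL60, MOLM13, MONOMAC6 or THP1 (1 to 3 without 1 replicate). The interaction called 3 to 6 members without 1 replicate. The list's 46 rises and 111 falls became 65 and 75 with library size alone, and 36 to 47 and 94 to 107 without 1 replicate. The causes of these changes were not tested. Each member had 436 or more reads in each library, and the 3 libraries of a group limit the precision.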
